A study of Homo sapiens with 18 samples.

Results

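Long noncoding RNAs are transcripts that are not translated into a functional protein. The RNAs described here were 3 that are retained in the nucleus or induced by stress (MALAT1, NEAT1 and LUCAT1) and 7 that host small nucleolar RNAs (GAS5, SNHG1, SNHG5, SNHG6, SNHG8, SNHG12 and ZFAS1), 10 of the 63677 genes in the count table. They were chosen by name, by matching each symbol to its Ensembl gene, with earlier results of these data known, so their counts of calls are a description. All 10 were above the limit on low counts, which 15576 genes passed.

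Gene-level read counts were available for 18 libraries of NCI-H1299, a human non-small cell lung cancer line grown in low-glucose medium with FBS. Each of 4 groups of 3 libraries came from cells transiently given a plasmid for TBX2, TBX3, TBX4 or TBX5 with a lipid reagent. The TBX2 and TBX4 plasmids encode human Flag-tagged proteins, the TBX3 plasmid a human HA-tagged protein and the TBX5 plasmid a mouse HA-tagged protein. The controls were 3 empty-vector (EV) libraries and 3 that the labels call Ctl without naming a treatment. T-box proteins are transcription factors that bind DNA through a shared domain, and this comparison asked how each of them changed the transcripts of these cells. Transfection did not reach every cell, so each library is a mixture of cells with and without plasmid, and fewer cells with an RNA cannot be told apart from less RNA per cell. The labels do not say whether the libraries of a group came from separate cultures, so the p-values measure the spread between these libraries, which may be technical.

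Libraries held 7365221 to 11743179 counts. One gene without a symbol took 10.7% to 53.5% of them, between 12.4% and 40.2% in the controls. This share ran from 19.6% to 40.5% in TBX2, from 10.7% to 47.4% in TBX3, from 13.2% to 18.6% in TBX4 and from 22.5% to 53.5% in TBX5 libraries. Levels are given as CPM after TMM scaling, which sets the size of each library on the bulk of its genes. In their own libraries, TBX2 was at 4073 to 4806 CPM, TBX3 at 17690 to 25335, TBX4 at 7520 to 8471 and TBX5 at 128 to 242. Each was at 13.2 CPM or less elsewhere. The TBX5 plasmid is mouse and its reads were counted on human genes, so its level may read too low. Differences between TBXs therefore cannot be told apart from differences in plasmid level, tag or vector. The library taken as TBX4 replicate c has a label that ends in TBX5. Without that library, the TBX4 calls below remained at log2 fold changes of 0.89 (LUCAT1, edgeR adjusted p = 0.00177) and 0.27 (GAS5, adjusted p = 0.0164), and the other 8 RNAs still had none. A change was called where edgeR's quasi-likelihood test against the 6 pooled controls, adjusted by Benjamini-Hochberg over all 15576 genes, gave p under 0.1. Libraries said below to lie above or below every control are described only, without the share of all genes that do so.

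MALAT1 is one of the most abundant nuclear RNAs and lies in nuclear speckles, where splicing factors gather, and NEAT1 is the scaffold on which paraspeckles are built. LUCAT1 was first described in lung cancer cells and is induced by oxidative and other stress. The host RNAs carry snoRNAs in their introns, which are cut out of the introns and guide the modification of ribosomal RNA, while the spliced remainder is usually not translated in full and is often removed by nonsense-mediated decay. Many host genes start transcription at a pyrimidine-rich start like that of ribosomal protein genes (a 5′ terminal oligopyrimidine start, TOP).

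In short, LUCAT1 was up-regulated by all 4 TBXs, at most 3.14-fold with TBX5. MALAT1 and NEAT1 moved less, MALAT1 up with TBX2 and TBX3 and NEAT1 up with TBX3. Of the 7 hosts, 5 were up-regulated by TBX2 (GAS5, SNHG1, SNHG6, SNHG12 and ZFAS1), where 17.0% of all tested genes were called higher. TBX5 raised none of them by the same test (6.56% of all genes higher) and lowered SNHG8 and ZFAS1 (6.12% lower). GAS5 was also higher with TBX3 and TBX4 (8.47% and 6.98% of all genes higher), and SNHG8 was lower with TBX3 (6.40% lower). SNHG5 passed the test with no TBX. Both MALAT1 calls could be lost by leaving out 1 library. So could the calls of LUCAT1 with TBX3, of GAS5 with TBX4 and of ZFAS1 with TBX5.

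The starts of 5 hosts are shown to compare them for that pyrimidine-rich feature, which 4 of them hold by the rule below and SNHG1 does not. GAS5 had 1 RefSeq window, which does not hold it by that rule and is not shown. Whether another start of GAS5 holds it was not tested. RefSeq (GRCh38.p14) gave a promoter window, 250 bases before to 50 bases after the annotated start, for 8 of the 10 RNAs (6 of the 7 hosts), with 2 windows for MALAT1. The sequences below run from 30 bases before to 30 bases after the start, 5′ to 3′ on the strand of the gene, and capitals mark a run of C and T that begins with C and holds at least 4 more pyrimidines, searched from 5 bases before to 10 bases after the start. SNHG1 lies at chr11:62855856-62855915 (minus strand), SNHG5 at chr6:85678704-85678763 (minus strand), SNHG8 at chr4:118278732-118278791 (plus strand), SNHG12 at chr1:28581844-28581903 (minus strand) and ZFAS1 at chr20:49278612-49278671 (plus strand).
SNHG1: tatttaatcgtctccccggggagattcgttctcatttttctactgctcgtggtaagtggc
SNHG5: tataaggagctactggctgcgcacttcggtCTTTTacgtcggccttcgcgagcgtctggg
SNHG8: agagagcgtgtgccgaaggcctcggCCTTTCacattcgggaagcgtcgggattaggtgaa
SNHG12: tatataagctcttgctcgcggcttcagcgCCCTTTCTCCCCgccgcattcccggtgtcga
ZFAS1: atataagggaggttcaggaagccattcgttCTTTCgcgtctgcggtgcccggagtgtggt

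Such a run lay at the start in 4 of the 6 host windows (SNHG5, SNHG8, SNHG12 and ZFAS1) and in 21.1% of all 35116 windows. The letters TATAA, looked for on the gene's strand from 40 to 16 bases before the start after these sequences had been read, were in the same 4 hosts and in 3.91% of all windows. MALAT1 held such a run in 1 of its 2 windows and TATAA in the other. The letters GGTGTGA of the T-box site, searched on both strands, were in none of the 8 RNAs' windows and in 3.45% of all windows. Their first 6 letters, GGTGTG, were in the windows of GAS5, SNHG5 and SNHG12 and in 16.8% of all windows. The E-box letters CACGTG were in none of the 8 and in 7.26% of all windows. Of the hosts with such a run, SNHG12 and ZFAS1 were up-regulated by TBX2, while SNHG5 and SNHG8 did not pass the test. Whether the run bears on these changes was not tested. A match to these letters is not a binding site, and the windows cover only 300 bases.

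LUCAT1 (ENSG00000248323, chr5:90350651-90610364 on the minus strand of GRCh37, annotated as a lncRNA) was the RNA that changed most. In the 6 controls its lowest, median and highest level was 2.57, 3.23 and 3.99 CPM. With TBX2 it was 6.30, 6.02 and 4.69 CPM in replicates a, b and c, with TBX3 4.96, 4.81 and 4.98, with TBX4 5.43, 6.83 and 6.83, and with TBX5 9.07, 11.1 and 11.7. Every TBX library lay above every control library, and the 3 TBX5 libraries lay above all others. These levels rest on only 24 to 88 counts per library. Against a control mean of 3.33 ± 0.544 CPM (SD, n = 6), the log2 fold change was 0.80 ± 0.17 (SE) with TBX2 (edgeR adjusted p = 0.00105), 0.58 ± 0.16 with TBX3 (adjusted p = 0.0239), 0.94 ± 0.15 with TBX4 (adjusted p = 0.000161) and 1.65 ± 0.16 with TBX5 (adjusted p = 4.66e-07). The TBX3 call was lost without TBX3 replicate c (0.56, adjusted p = 0.110) and against the Ctl controls alone (0.51, adjusted p = 0.103).

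The order of the LUCAT1 level was controls, TBX3, TBX2, TBX4 and TBX5. Between TBX groups, in 1 fit of all 18 libraries, TBX5 was above TBX2 by a log2 difference of 0.85 ± 0.16 (adjusted p = 0.000957), above TBX3 by 1.07 ± 0.17 (adjusted p = 0.000123) and above TBX4 by 0.71 ± 0.15 (adjusted p = 0.0341). TBX2, TBX3 and TBX4 did not differ from each other past the threshold. The protein-coding gene nearest to LUCAT1 on the side of its start, ARRDC3, 54084 bp away on the same strand, was also up-regulated by all 4 TBXs. ARRDC3, an arrestin-domain protein that acts in receptor trafficking, was at 41.5 to 46.8 CPM in the controls, at 74.3, 87.9 and 85.8 CPM with TBX2, at 88.7, 104.7 and 98.5 CPM with TBX3, at 70.6, 68.4 and 66.8 CPM with TBX4 and at 65.3, 82.1 and 90.2 CPM with TBX5. In that order of TBXs, its log2 fold changes were 0.90 ± 0.07, 1.13 ± 0.06, 0.62 ± 0.06 and 0.82 ± 0.08. It was thus changed most with TBX3, where LUCAT1 was changed least.

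MALAT1 (ENSG00000251562, chr11:65265111-65275544, plus strand) was the most abundant of the 10 RNAs. Per kilobase of annotated exon, the control level of MALAT1 was 394 ± 42.2 CPM (SD, n = 6), against 7.57 ± 0.761 for NEAT1, 0.201 ± 0.0328 for LUCAT1 and 3.92 ± 0.305 (SNHG12) to 31.9 ± 1.91 (GAS5) for the hosts. The exon lengths are from a later annotation than the one used for counting, so these values and their order are approximate. MALAT1 ran from 3504 to 4633 CPM in the controls, with a median of 4241. With TBX2 it was 5393, 4024 and 6342 CPM in replicates a, b and c, and with TBX3 5482, 5830 and 4415 CPM. In each of these groups 2 libraries lay above every control and the remaining one, TBX2 replicate b and TBX3 replicate c, lay within the controls. The log2 fold change was 0.35 ± 0.11 with TBX2 (edgeR adjusted p = 0.0214) and 0.35 ± 0.09 with TBX3 (adjusted p = 0.0161). The MALAT1 call was lost without TBX2 replicate c (0.20, adjusted p = 0.232) and without TBX3 replicate b (0.27, adjusted p = 0.128). With TBX4 (3651, 4043 and 4491 CPM) and TBX5 (4259, 4362 and 4428 CPM) the libraries lay within the controls, at log2 fold changes of -0.02 ± 0.08 (adjusted p = 0.915) and 0.08 ± 0.08 (adjusted p = 0.623).

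NEAT1 (ENSG00000245532, chr11:65190245-65213011, plus strand), which lies upstream of MALAT1 on the same chromosome, passed the test with TBX3 alone. It ran from 157 to 203 CPM in the controls, with a median of 169.7. With TBX3 it was 232, 241 and 212 CPM, above every control, at a log2 fold change of 0.41 ± 0.07 (edgeR adjusted p = 0.000403). With TBX2 the NEAT1 level split like that of MALAT1, at 205, 139 and 212 CPM, with replicate b below every control, and the log2 fold change was 0.10 ± 0.10 (adjusted p = 0.510). Without that library it was 0.27 and passed the test (adjusted p = 0.0123). NEAT1 was at 140.3, 164 and 187 CPM with TBX4 and at 192, 162 and 170.5 CPM with TBX5, where the log2 fold changes were -0.08 ± 0.08 and 0.02 ± 0.08. In direct comparison NEAT1 was higher with TBX3 than with TBX2 by 0.31 ± 0.12 (adjusted p = 0.0872), than with TBX4 by 0.48 ± 0.11 (0.00984) and than with TBX5 by 0.38 ± 0.12 (0.0562).

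MALAT1 and NEAT1 varied together over the 18 libraries (Pearson's r = 0.82 of the log2 levels), while LUCAT1 followed neither (r = 0.11 with MALAT1 and r = -0.02 with NEAT1). These correlations are over libraries that share groups, scaling and depth and are given as a description. The counts of MALAT1 per count of NEAT1 were 23.9 ± 1.92 in the controls (SD, n = 6), 28.4 ± 1.85 with TBX2, 22.9 ± 1.79 with TBX3, 24.9 ± 1.01 in TBX4 and 25.1 ± 2.53 in TBX5 libraries (SD, n = 3). This ratio within a library needs no scaling, and its TBX2 libraries (26.3, 29.0 and 29.9) overlapped with the controls (21.8 to 26.6).

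**Figure D1:**
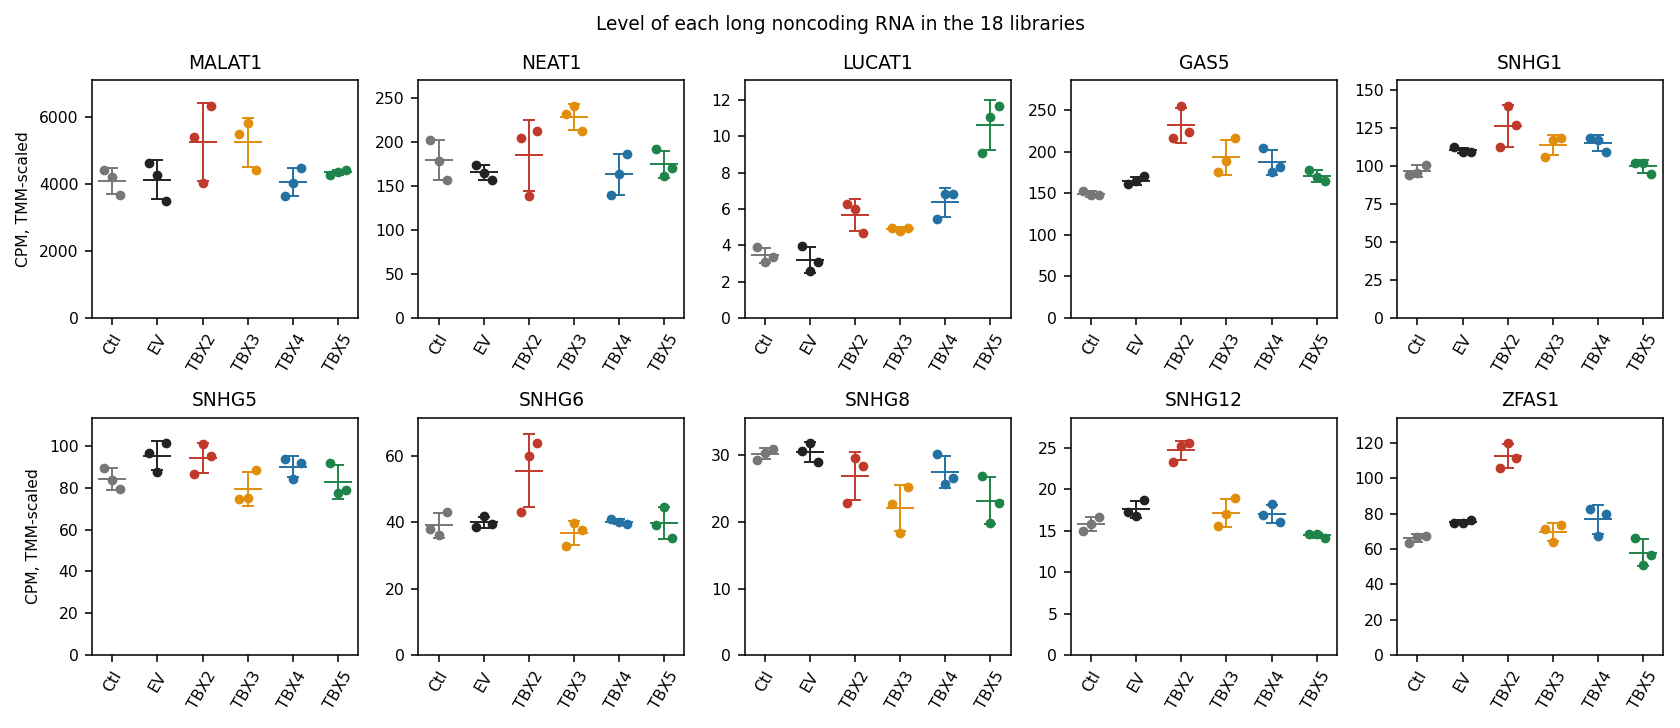
Level of each of the 10 RNAs in CPM (linear axis from 0, TMM-scaled) in the 3 libraries of each of 6 groups; points are libraries in the order a, b, c, and bars are the mean and SD. LUCAT1 lies above the controls in every TBX library, and GAS5, SNHG12 and ZFAS1 do so in every TBX2 library. The share of all genes that lie so is not given, and 17.0% of all tested genes were called higher with TBX2.

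Among the hosts, TBX2 gave the largest changes. GAS5, a host of box C/D snoRNAs that accumulates in cells whose growth is arrested (ENSG00000234741, chr1:173827697-173838020, minus strand), ran from 148 to 170.4 CPM in the controls, with a median of 157. It was 216, 255 and 223 CPM with TBX2, 175, 189 and 216 CPM with TBX3 and 205, 176 and 182 CPM with TBX4, in each case above every control. With TBX5 it was 178, 169.7 and 165 CPM and overlapped with them. The log2 fold change of GAS5 was 0.56 ± 0.06 with TBX2 (edgeR adjusted p = 9.11e-07), 0.30 ± 0.06 with TBX3 (adjusted p = 0.00333), 0.25 ± 0.06 with TBX4 (adjusted p = 0.00842) and 0.12 ± 0.06 with TBX5 (adjusted p = 0.251). The TBX4 call was lost without TBX4 replicate a (0.18, adjusted p = 0.103) and when the share of the most counted gene was a covariate (0.15, adjusted p = 0.282).

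ZFAS1 (ENSG00000177410, chr20:47894715-47916137, plus strand), the host of SNORD12, SNORD12B and SNORD12C, moved in opposite directions with TBX2 and TBX5. Its lowest, median and highest control level was 63.5, 71.2 and 76.3 CPM. With TBX2 it was 106, 119.9 and 112 CPM, all above the controls. With TBX5 it was 66.3, 51.2 and 56.6 CPM, with 2 libraries below every control and replicate a among them. ZFAS1 rose by 0.67 ± 0.07 on the log2 scale with TBX2 (edgeR adjusted p = 9.55e-08) and fell by 0.27 ± 0.08 with TBX5 (adjusted p = 0.0350). The TBX5 call was lost without TBX5 replicate b (-0.19, adjusted p = 0.216), without replicate c (-0.25, adjusted p = 0.151) and against the Ctl controls alone (-0.17, adjusted p = 0.295). ZFAS1 was at 71.6, 64.1 and 73.6 CPM with TBX3 and at 82.9, 67.4 and 79.9 CPM with TBX4, which overlapped with the controls.

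In the direct comparison of TBX5 with TBX2, the log2 difference of ZFAS1 was -0.94 ± 0.09 (edgeR adjusted p = 6.92e-09), and the 2 groups did not overlap. ZFAS1 was also lower than with TBX2 with TBX3 (-0.68 ± 0.08, adjusted p = 1.15e-06) and with TBX4 (-0.55 ± 0.08, adjusted p = 2.76e-05). The order of its level was TBX5, TBX3, controls, TBX4 and TBX2. TBX5 was below TBX3 by 0.26 ± 0.09 (adjusted p = 0.0968) and below TBX4 by 0.39 ± 0.09 (adjusted p = 0.0458).

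SNHG12 (ENSG00000197989, chr1:28905050-28909644, minus strand) followed ZFAS1 more closely than any other host did (r = 0.90 over 18 libraries). It ran from 15.0 to 18.8 CPM in the controls, with a median of 16.8, and was 23.4, 25.2 and 25.6 CPM with TBX2, above all of them (log2 fold change 0.55 ± 0.08, edgeR adjusted p = 3.85e-05). With TBX5 its 14.6, 14.6 and 14.1 CPM lay below every control, but the log2 fold change of -0.22 ± 0.10 did not pass the test (adjusted p = 0.197). With TBX3 (15.5, 17.0 and 18.9 CPM) and TBX4 (16.9, 18.2 and 16.1 CPM) SNHG12 did not pass the test either.

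SNHG6 (ENSG00000245910, chr8:67832796-67838633, minus strand) was raised by TBX2 in 2 libraries only. It ran from 36.1 to 43.1 CPM in the controls and was 42.9, 59.8 and 63.8 CPM with TBX2, where replicate a lay within the controls (log2 fold change 0.48 ± 0.09, edgeR adjusted p = 0.000367). Its levels with TBX3 (32.8, 39.9 and 37.6 CPM), TBX4 (39.6 to 41.0 CPM) and TBX5 (39.3, 44.7 and 35.2 CPM) gave no call. In the annotation used here SNHG6 shares 58.9% of its exon length with another counted gene, and counting without strand cannot assign reads there to one of them.

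SNHG1 (ENSG00000255717, chr11:62619450-62623425, minus strand), a host of box C/D snoRNAs, ran from 94.0 to 113 CPM in the controls, with a median of 105. With TBX2 it was 112, 139.8 and 127 CPM, with replicate a at the level of the highest control (log2 fold change 0.29 ± 0.07, edgeR adjusted p = 0.00477). With TBX3 (106, 117 and 119 CPM), TBX4 (119, 118 and 109 CPM) and TBX5 (102, 102 and 95.0 CPM) SNHG1 did not pass the test, at log2 fold changes of 0.14 ± 0.06, 0.15 ± 0.06 and -0.05 ± 0.07. The gene next to SNHG1, SLC3A2, starts 51 bp away on the other strand and encodes the heavy chain of an amino acid transporter. Named after its values were seen, SLC3A2 rose with TBX2 by 0.97 ± 0.07 on the log2 scale (adjusted p = 1.38e-09), with TBX3 by 0.23 ± 0.07 (adjusted p = 0.0502) and with TBX4 by 0.27 ± 0.07 (adjusted p = 0.0138). SLC3A2 was not called higher with TBX5.

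SNHG8 (ENSG00000269893, chr4:119199858-119206471, plus strand) was lower with both TBX3 and TBX5. Its control levels were close together, from 28.9 to 31.8 CPM. With TBX3 it was 22.6, 18.4 and 25.2 CPM and with TBX5 26.9, 19.8 and 22.8 CPM, below every control in both. SNHG8 fell by 0.42 ± 0.08 on the log2 scale with TBX3 (edgeR adjusted p = 0.00142) and by 0.36 ± 0.09 with TBX5 (adjusted p = 0.0106). With TBX2 (22.8, 29.5 and 28.3 CPM) and TBX4 (30.1, 25.7 and 26.6 CPM) some libraries lay within the controls, and the values of -0.17 ± 0.08 and -0.14 ± 0.07 did not pass the test. The TBX2 value of SNHG8 passed it without TBX2 replicate b (-0.26, adjusted p = 0.0466) and with no filter on low counts (-0.21, adjusted p = 0.0993). SNHG8 shares 37.6% of its exon length with another gene and ZFAS1 38.6%, so the same limit of strand applies to them.

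SNHG5 (ENSG00000203875, chr6:86360209-86388650, minus strand), the host of SNORD50A and SNORD50B, was at 79.2 to 101 CPM in the controls, with a median of 88.5. It was at 86.7, 101 and 95.0 CPM with TBX2, at 74.6, 74.9 and 88.6 CPM with TBX3, at 93.7, 84.2 and 91.7 CPM with TBX4 and at 91.9, 77.5 and 78.7 CPM with TBX5. Each group overlapped with the controls, and SNHG5 had log2 fold changes of 0.07 ± 0.07, -0.17 ± 0.07, -0.00 ± 0.07 and -0.11 ± 0.08. Its TBX3 value passed the test against the EV controls alone (-0.26, edgeR adjusted p = 0.0400) and without TBX3 replicate c (-0.27, adjusted p = 0.0420).

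**Figure D2:**
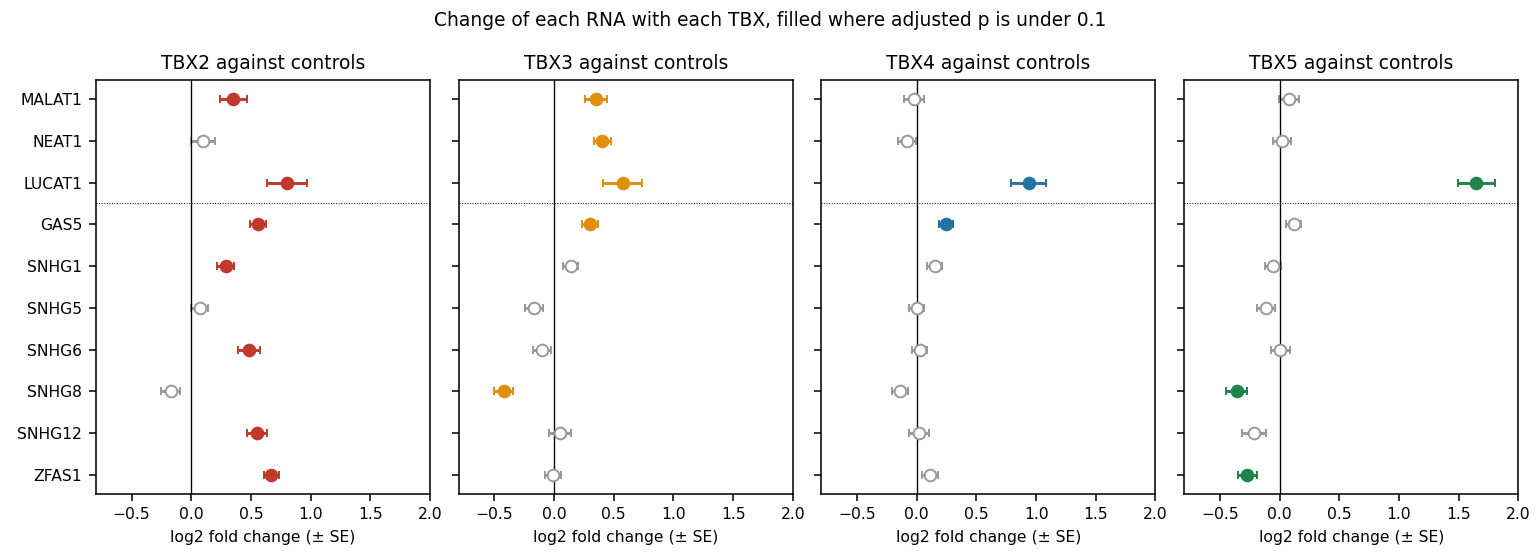
Log2 fold change (± SE) of the 10 RNAs with each TBX against the 6 pooled controls; filled points passed an adjusted p of 0.1, and the dotted line separates the 3 nuclear or stress RNAs (top) from the 7 hosts. LUCAT1 reaches 1.65 with TBX5, and the filled host points lie to the right with TBX2 (5 of 7) and to the left with TBX5 (2 of 7). Of all tested genes, 17.0% were called higher with TBX2 and 6.12% lower with TBX5.

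By the same test, 7 of the 10 RNAs were higher and 0 lower with TBX2, where 17.0% of all tested genes were called higher and 15.6% lower. TBX3 had 4 higher and 1 lower (8.47% and 6.40% of all genes). TBX4 had 2 higher and 0 lower (6.98% and 6.07%), and TBX5 had 1 higher and 2 lower (6.56% and 6.12%). Because the RNAs were listed with such results known, nothing is read from these shares. Scaled by library totals in place of TMM, 7 of these 17 calls remained: GAS5, LUCAT1, SNHG12 and ZFAS1 with TBX2, GAS5 and LUCAT1 with TBX4, and LUCAT1 with TBX5. The 7 hosts had a median log2 fold change of 0.48 for TBX2, -0.01 for TBX3, 0.02 for TBX4 and -0.11 for TBX5, beside medians of all tested genes between -0.01 and 0.00. The summed level of the 7 hosts was 508 ± 29.6 CPM in the 6 controls (SD), 672 ± 59.9 in the 3 TBX2 libraries, 532 ± 41.4 in TBX3, 554 ± 30.4 in TBX4 and 489 ± 27.1 in TBX5.

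The control groups were also set against each other. In EV against Ctl, 0 of the 10 RNAs passed the edgeR test, where 0.385% of all genes did (0.282% higher and 0.103% lower in EV), and DESeq2 also called 0. At an unadjusted p under 0.05 there were 4 (GAS5, SNHG1, SNHG5 and ZFAS1), all higher in EV, as were 4.93% of all genes at that threshold. The log2 difference was above 0 for all 7 hosts, from 0.01 (SNHG8) to 0.19 (ZFAS1 and SNHG1). For GAS5, SNHG1, SNHG12 and ZFAS1 the 3 EV libraries lay above the 3 Ctl libraries, an absence of overlap in this direction that 7.68% of all genes had. ZFAS1, for example, was at 63.5, 67.0 and 67.6 CPM in Ctl and at 74.7, 74.9 and 76.3 CPM in EV. Set against EV alone, all 7 TBX2 calls remained, among them GAS5 (0.49, adjusted p = 0.000118), ZFAS1 (0.58, adjusted p = 9.06e-06) and SNHG1 (0.20, adjusted p = 0.0730).

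Pairs of TBX groups were also compared, and the estimate of the spread in that fit includes the controls. For TBX3 against TBX2, 1 of the 10 RNAs was higher and 5 were lower (7.51% and 8.01% of all genes). For TBX4 against TBX2, 0 were higher and 5 lower (5.61% and 6.66%), and for TBX5 against TBX2 1 was higher and 5 were lower (5.69% and 6.45%). GAS5, SNHG6, SNHG12 and ZFAS1 were among the lower ones in each of these 3 comparisons, which share the TBX2 libraries. GAS5 was lower than with TBX2 by 0.26 ± 0.08 on the log2 scale with TBX3 (edgeR adjusted p = 0.0246) and by 0.44 ± 0.08 with TBX5 (adjusted p = 0.000301). SNHG12 was at 0.706 of its TBX2 level with TBX3, at 0.694 with TBX4 and at 0.587 with TBX5. For TBX4 against TBX3, 0 were higher and 2 lower (4.02% and 5.96% of all genes), MALAT1 (-0.37 ± 0.13, adjusted p = 0.0831) and NEAT1. For TBX5 against TBX3, 1 was higher and 2 were lower (3.11% and 4.30%). For TBX5 against TBX4, where 0.430% of all genes were called higher and 0.109% lower, LUCAT1 was higher and ZFAS1 lower by the values given above.

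The 2 classes were also compared within each library, as the mean log2 level of the 3 nuclear or stress RNAs minus that of the 7 hosts. The 6 controls were at 1.26 ± 0.19 (SD) by this difference. TBX2 libraries were at 1.28 ± 0.31, TBX3 at 1.72 ± 0.20, TBX4 at 1.45 ± 0.23 and TBX5 at 1.94 ± 0.12 (SD, n = 3 each). With TBX5 it was 1.81, 1.96 and 2.05, above every control (1.03 to 1.53), while with TBX2, TBX3 and TBX4 at least 1 library lay within the controls. With TBX2 both classes were higher than in the controls, by their means of 7.49 against 7.12 for the nuclear RNAs and 6.20 against 5.86 for the hosts. Much of the TBX5 value was LUCAT1: without it the difference from the controls went from 0.68 to 0.19, and that of TBX4 from 0.19 to -0.11.

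**Figure D3:**
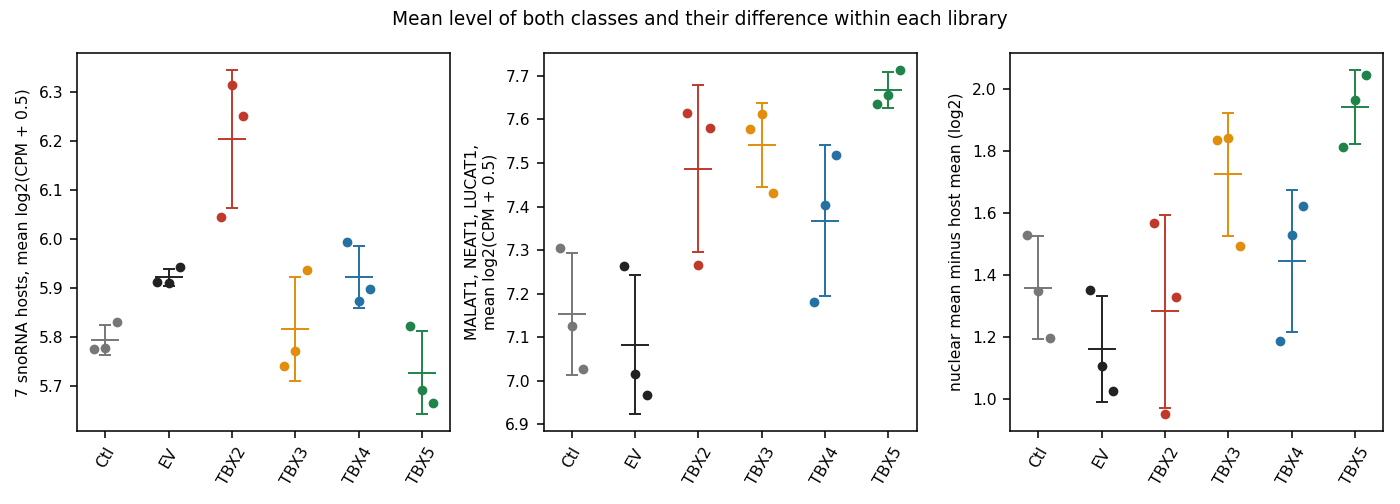
Mean log2(CPM + 0.5) of the 7 hosts, of MALAT1, NEAT1 and LUCAT1, and the difference of both means, in each of the 18 libraries of 6 groups; points are libraries, and bars are the mean and SD. The host mean is highest with TBX2 (6.20), and the difference is highest with TBX5 (1.94); the axes do not start at 0.

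Over the 18 libraries the log2 levels of the hosts correlated with each other with a median r of 0.63 (21 pairs, from -0.15 to 0.90), and with the nuclear RNAs with a median r of -0.07 (21 pairs, from -0.59 to 0.30). The pair of GAS5 and SNHG8 had the lowest value among hosts. Libraries share groups, scaling and depth, so these values are a description. The genes whose levels were most like the mean of the hosts were FTL (r = 0.94), the light chain of ferritin, COL11A2 (r = 0.93) and ASNS (r = 0.93), the asparagine synthetase, over 18 libraries. The genes most like MALAT1 were SRRM1 (r = 0.93), a splicing coactivator, SCAF4 (r = 0.92) and TOP1 (r = 0.90), DNA topoisomerase I. Those most like NEAT1 were ZFHX3 (r = 0.94), TULP4 (r = 0.92) and NIPBL (r = 0.89), the cohesin loader. Those most like LUCAT1 were WDR19 (r = 0.94), TCP11L2 (r = 0.93) and ADAM19 (r = 0.92). COL11A2, at 0.177 to 3.51 CPM, and TCP11L2, at 0.428 to 3.65 CPM, rest on few counts.

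The share of the most counted gene varied widely within groups. Over the 18 libraries its log2 share had r = -0.32 with the mean host level, r = 0.42 with MALAT1, r = 0.12 with LUCAT1 and r = 0.39 with the difference of both classes. With that gene left out of the table, none of the 10 RNAs gained or lost a call against the controls. In a fit with the share as covariate, added after seeing the data, the GAS5 call with TBX4 was lost, SNHG5 with TBX3 (-0.19, edgeR adjusted p = 0.0216) and GAS5 with TBX5 (0.16, adjusted p = 0.0872) were gained, and the other 37 of 40 values stayed on their side of the threshold.

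**Figure D4:**
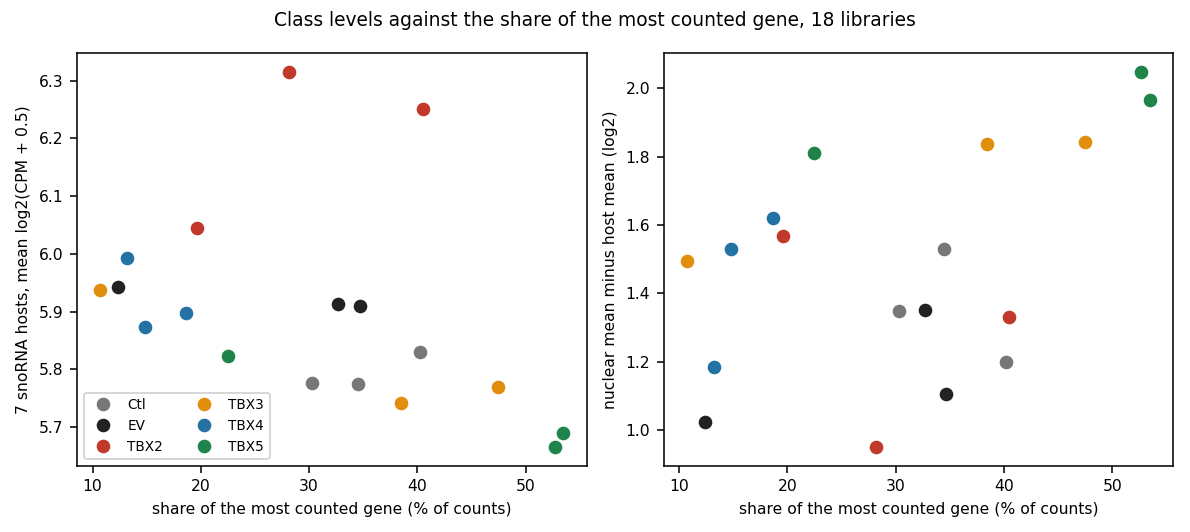
Mean log2(CPM + 0.5) of the 7 hosts (left) and the nuclear minus host difference (right) in each of the 18 libraries against the share of counts taken by the most counted gene (%); points are libraries, coloured by group. The TBX2 libraries lie above the others on the left at shares of 19.6% to 40.5%, and the TBX5 libraries cover 22.5% to 53.5%.

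The snoRNAs inside the hosts could hardly be measured in these libraries. Of 29 listed, 19 had a row in the table and 4 passed the limit on low counts, SNORD99 of SNHG12 and SNORD12, SNORD12B and SNORD12C of ZFAS1. The 3 of ZFAS1 summed to 32 to 120 counts per library, and the 7 rows of GAS5 to 0 to 8. None of the 4 passed the edgeR test with any TBX, 0 had an unadjusted p under 0.05, and DESeq2 called 0. With TBX2, where ZFAS1 rose, SNORD12 was at -0.11 ± 0.27, SNORD12B at 0.27 ± 0.17 and SNORD12C at -0.09 ± 0.30 on the log2 scale.

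Counts of called genes in the lists that follow stand beside the shares of all tested genes called higher and lower, which were 17.0% and 15.6% with TBX2, 8.47% and 6.40% with TBX3, 6.98% and 6.07% with TBX4, and 6.56% and 6.12% with TBX5. Of 17 other snoRNA hosts tested, 6 were higher and 3 lower with TBX2, 1 and 1 with TBX3, 2 and 0 with TBX4 and 0 and 1 with TBX5. Named after their values were seen, SNHG11 rose by 0.91 ± 0.14 on the log2 scale with TBX2 (edgeR adjusted p = 3.05e-05) and SNHG32 by 0.88 ± 0.07 (adjusted p = 1.00e-08), while DANCR fell with TBX2 (-0.63, adjusted p = 0.00261) and TBX3 (-0.42, adjusted p = 0.0379). Of 16 other nuclear or stress noncoding RNAs tested, 5 were higher and 4 lower with TBX2, 1 and 2 with TBX3, 0 and 1 with TBX4 and 1 and 0 with TBX5.

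The proteins that work with these RNAs were looked up in the same fits, where 17.0% of all genes were higher and 15.6% lower with TBX2 and no more than 8.47% in either direction with the other TBXs. Of 15 snoRNP proteins and assembly factors, which bind and mature the snoRNAs, 1 was higher and 6 lower with TBX2, 1 and 4 with TBX3, 0 and 4 with TBX4 and 0 and 6 with TBX5. Of 13 paraspeckle proteins, which bind NEAT1, 1 was higher and 3 lower with TBX2, 0 and 1 with TBX3, 0 and 3 with TBX4 and 0 and 2 with TBX5. Of 10 factors of nonsense-mediated decay, 2 were higher and 1 lower with TBX2, 3 and 0 with TBX3, 1 and 2 with TBX4 and 0 and 1 with TBX5. No gene of these 3 lists passed the edgeR test in the same direction with all 4 TBXs. The paper, which tested with DESeq2, names the paraspeckle protein gene NONO among those down-regulated by all 4 TBXs. That shared call of NONO was thus not reached by the edgeR test used here.

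Ribosomal protein genes are the largest class with a TOP start, and a role of that start was not tested. Of 84 tested, 49 were lower and 0 higher with TBX2, at a median log2 fold change of -0.20 (15.6% of all genes lower). With TBX3 32 were lower (median -0.16, 6.40% of all genes), with TBX4 6 (median -0.01, 6.07%) and with TBX5 13 (median -0.12, 6.12%), and 0 were higher in each. RPL23 was lower with all 4 TBXs, at log2 fold changes of -0.50 (TBX2), -0.24 (TBX3), -0.15 (TBX4) and -0.22 (TBX5).

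Of 22 tested genes that flank or overlap the 10 RNAs, 8 were higher and 4 lower with TBX2 (17.0% and 15.6% of all genes), 5 and 2 with TBX3 (8.47% and 6.40%), 3 and 4 with TBX4 (6.98% and 6.07%) and 2 and 2 with TBX5 (6.56% and 6.12%). Besides ARRDC3, the one gene with the same call in all 4 was RCC1, a regulator of nuclear transport near SNHG12, which was lower at -0.40, -0.25, -0.17 and -0.37. It lies 39238 bp from SNHG12 on the opposite strand, and SNHG12 itself was higher with TBX2. ZNFX1, which overlaps ZFAS1 on the opposite strand, was higher with TBX2 (0.39 ± 0.08, edgeR adjusted p = 0.000744) and TBX3 (0.42 ± 0.07, adjusted p = 0.000685), and ZFAS1 did not pass the test with TBX3. GAS5-AS1, on the strand opposite to GAS5, was higher with TBX2 (0.44 ± 0.16, adjusted p = 0.0404). ZNFX1 and GAS5-AS1 were named after their values were seen. Each overlaps its host on the opposite strand, so the limit of counting without strand applies where they share exons.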

How the data were processed

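RNA-seq of NCI-H1299 cells gave 18 libraries in 6 groups. Per the study's methods and the submitters' processing notes, base calls were converted with bcl2fastq 1.8.4, paired reads were aligned to GRCh37 with STAR 2.3.0 and featureCounts, on default settings that ignore strand, counted them per Ensembl gene. The authors deposited these raw counts without normalization or filter. Whether RNA was selected for poly(A) is not given in the sources used here. The 10 RNAs and all gene lists were chosen with earlier results of these data known. Lists were described by counts, with examples where all 4 TBX contrasts gave the same call.

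A gene was kept if 10 or more libraries held over 5 of its counts. Each TBX was tested against the 6 pooled controls with edgeR 4.0.16 (quasi-likelihood F test, TMM, Benjamini-Hochberg over all 15576 genes, threshold 0.1) in R 4.3.3, and TBX groups against each other in 1 fit. Standard errors were derived from log2 fold changes and F values. Class means used log2(CPM + 0.5). The method was tested on simulated data. Depth was 7365221 to 11743179 counts, and LUCAT1 held at most 88. Alternatives were DESeq2 1.42.0, other scalings and filters, single control groups, the replicate letter as a block and each library left out. Gene positions, exon lengths and exon overlaps come from GENCODE v44lift37, later than the annotation used for counting, and sequences from RefSeq.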

Additional observations from a re-analysis of the deposited data

How the results depend on the processing

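Of 990 recomputed values of the 10 RNAs, 953 kept their side of the threshold, 19 lost the call, 18 gained one and none that was called changed its direction. All 17 calls against the controls kept their sign under every alternative run, and 12 of the 17 were kept whichever library was left out. Scaling by library totals, without TMM, moved the numbers of RNAs called to 4 with TBX2, 0 with TBX3, 4 with TBX4, 1 with TBX5 and 9 in the comparisons of TBX groups (7, 5, 2, 3 and 24 as reported). That scaling shifts the median log2 fold change of all genes to 0.01, -0.08, 0.25 and -0.31 for TBX2, TBX3, TBX4 and TBX5 and to 0.20 for EV against Ctl, and the share of calls that are higher with TBX2 goes from 52.2% to 78.9%, with TBX3 from 57.0% to 100%, with TBX4 from 53.5% to 98.8% and with TBX5 from 51.7% to 40.9%. With TBX4, the Ctl controls alone gave 4 calls and a covariate for the top gene's share of counts, added after seeing the data, gave 1. Leaving out 1 library gave 6 to 9 calls with TBX2, 4 to 6 with TBX3, 1 to 3 with TBX4 (1 without TBX4 replicate a), 2 to 3 with TBX5 and 0 to 1 in EV against Ctl, where SNHG1 was called without Ctl replicate c (0.22, edgeR adjusted p = 0.0802). Without LUCAT1 the nuclear minus host level differed from the controls by -0.11 with TBX4 and 0.19 with TBX5.

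The replicate letters did not pair the libraries: deviations from group means correlated with a mean r of 0.00 for libraries of the same letter and 0.00 for others. With the replicate block the numbers called were 7, 5, 2 and 3 for TBX2, TBX3, TBX4 and TBX5, 0 for EV against Ctl and 23 between TBX groups. Depth limits LUCAT1, at 24 to 88 counts, and the snoRNAs most.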
